A study of Rattus norvegicus with 8 samples.

Results

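The CCAAT/enhancer-binding proteins (C/EBP factors) were followed in the fetal rat testis through 5 genes and their 12 probe sets, out of 14217 named genes and 31042 probe sets tested. Cebpa had 5 of these probe sets, Cebpd 3, Cebpg 2, and Cebpb and Cebpe 1 each. They were taken by name, as every probe set that the platform's annotation assigned to 1 of these symbols alone. Testes came from male Fischer 344 fetuses at gestational day 20, with 4 samples from corn oil dams (vehicle) and 4 from dams given dibutyl phthalate (DBP, a plasticizer) at 50 mg/kg body weight in the same oil. Both groups were gavaged once a day from gestational day 12 to 20, with whole testes frozen 6 h after dosing ended. The question was which transcripts differ in exposed fetal testes. Nothing in the labels tells whether the 4 samples of a group are separate dams or litters or pools of them, so each p-value speaks for the spread among these samples, which may be technical.

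C/EBP factors are basic leucine zipper (bZIP) proteins: a leucine zipper joins them into homodimers or heterodimers, and the basic region next to it grips the DNA. C/EBP alpha, the product of Cebpa, drives terminal differentiation of fat cells, hepatocytes and granulocytes and holds back cell division. C/EBP beta acts downstream of hormones and cyclic AMP, and in steroid-producing gonadal cells it can act on the promoter of Star, while C/EBP delta is known for induction by inflammatory signals and C/EBP epsilon for granulocyte maturation. C/EBP gamma, the product of Cebpg, lacks a transactivation domain of its own and works mainly as a partner of other bZIP proteins.

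The promoters of the 3 genes whose representing probe sets lay lower after DBP are shown here so that the factors' own control regions can be read beside their levels. Each is the 250 bases before the annotated start, taken from RefSeq on build GRCr8, written 5′ to 3′ in the direction of transcription. Capitals mark matches to TATAAA (this strand only) and, on both strands, to the CCAAT box, to TGACG (the core of a cyclic AMP response element), to GGGCGG (an Sp1-type GC box) and to TTGCNNAA (a C/EBP-type site). No searched matches overlapped in these windows.
Cebpa, chr1:96896334-96896583, plus strand: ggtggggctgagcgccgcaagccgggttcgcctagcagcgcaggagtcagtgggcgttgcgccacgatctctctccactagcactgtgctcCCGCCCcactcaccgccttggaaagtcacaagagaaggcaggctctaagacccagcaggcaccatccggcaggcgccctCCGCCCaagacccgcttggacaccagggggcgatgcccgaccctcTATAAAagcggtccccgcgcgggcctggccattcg
Cebpb, chr3:176816755-176817004, plus strand: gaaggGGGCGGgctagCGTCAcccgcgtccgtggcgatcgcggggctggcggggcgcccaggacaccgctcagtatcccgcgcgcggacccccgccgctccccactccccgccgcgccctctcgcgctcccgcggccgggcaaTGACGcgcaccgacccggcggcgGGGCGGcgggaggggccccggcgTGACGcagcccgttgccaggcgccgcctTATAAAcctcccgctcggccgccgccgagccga
Cebpg, chr1:96829737-96829986, minus strand: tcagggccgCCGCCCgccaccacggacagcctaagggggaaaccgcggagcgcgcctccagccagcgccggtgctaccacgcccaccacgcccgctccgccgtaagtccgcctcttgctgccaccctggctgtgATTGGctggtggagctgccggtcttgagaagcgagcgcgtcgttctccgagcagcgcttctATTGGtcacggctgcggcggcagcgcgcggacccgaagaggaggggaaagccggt
Cebpa and Cebpb each carried TATAAA, at bases -35 to -30 and -33 to -28 from the start, a word that 8.06% of the 33469 promoter windows in the table hold. Cebpb had 3 TGACG matches, at bases -234 to -230, -107 to -103 and -61 to -57, and the others had 0; 18.2% of all windows hold at least 1. Cebpg had 2 CCAAT matches, both as ATTGG, at bases -116 to -112 and -55 to -51, against 0 in the other windows shown, and 34% of all windows hold 1. GGGCGG matched 2 times each in Cebpa and Cebpb and 1 time in Cebpg (30.5% of all windows). TTGCNNAA matched in none of these windows (9.22% of all windows). The Cebpe window held no match to any of the 5 words, and Cebpd was not in the table. These matches describe letters and were not tested for binding. Only exact matches were marked, so no match does not mean that a window lacks such a site.

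Array medians lay between 6.08 and 6.14 on the log2 scale, no pair of arrays was identical, and RNA integrity numbers ran from 8.6 to 8.8. The bacterial poly-A spike-ins, transcripts added before labelling, set 2 arrays apart: their mean log2 signal over 27 probe sets was 4.64 in DBP replicate 3 and 4.60 in DBP replicate 4, against 6.10 to 6.72 on the other arrays. The part of this gap in the results was not tested, and for many results below the change is also given for DBP replicates 1 and 2 and for replicates 3 and 4.

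**Figure D1:**
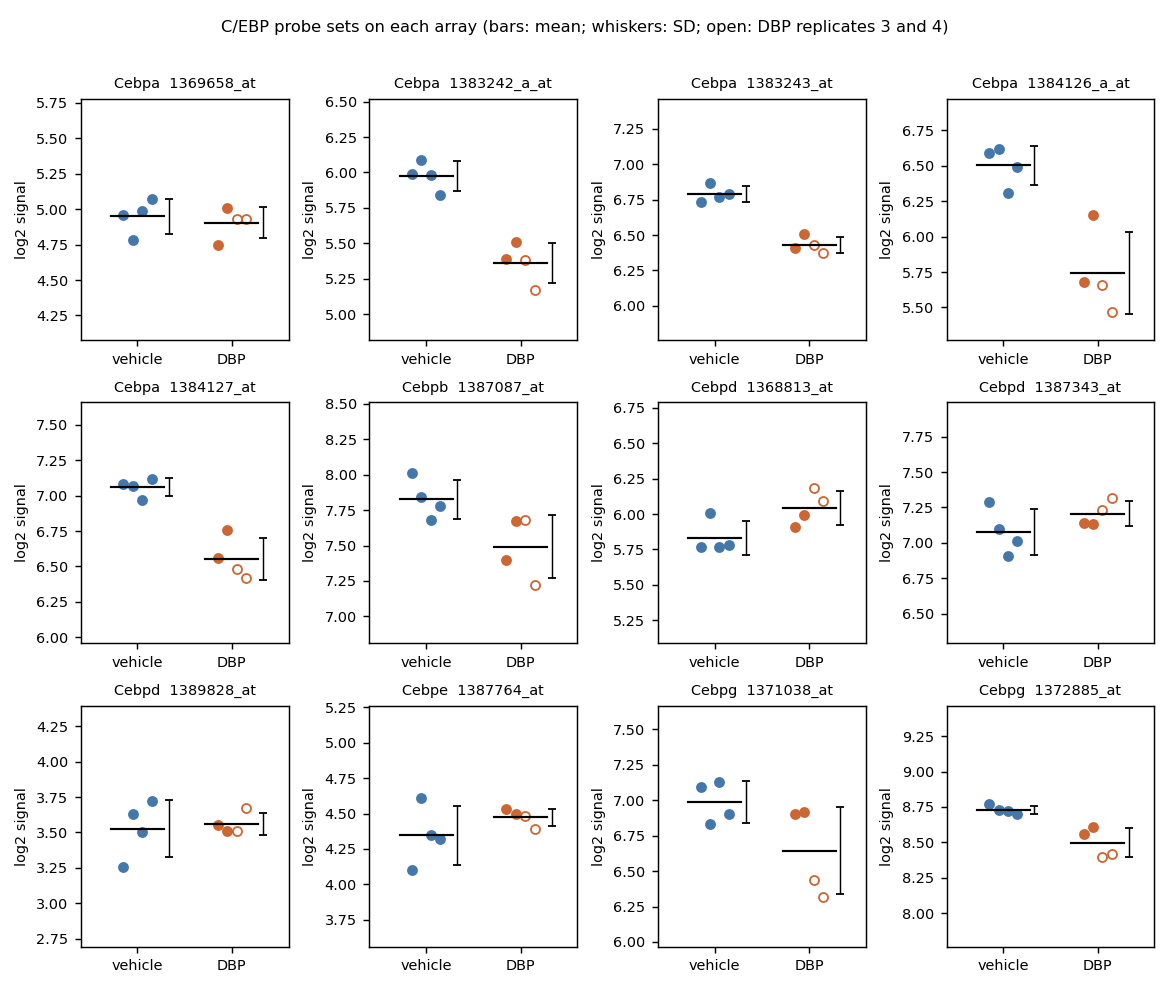
Log2 RMA signal (y axis) of each of the 12 C/EBP probe sets on the 4 vehicle and 4 DBP arrays; every panel spans the same range of log2 units, points are arrays, bars group means and whiskers the SD. The groups are separate in the last 4 of the 5 Cebpa panels and in the second Cebpg panel (1372885_at); open symbols are DBP replicates 3 and 4.

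Cebpa fell after DBP. On its brightest probe set, 1384127_at, the log2 values were 7.08, 7.07, 6.97 and 7.12 in vehicle replicates 1 to 4 and 6.56, 6.76, 6.48 and 6.42 in DBP replicates 1 to 4. Every DBP array lay below every vehicle array, and the means were 7.06 ± 0.064 and 6.56 ± 0.15 (SD, n = 4 per group). The log2 change was -0.51 ± 0.078 (SE; 95% confidence interval -0.68 to -0.33), which is 1.42-fold lower (adjusted p = 0.015; limma with Benjamini-Hochberg adjustment over all probe sets). In whole testis RNA, fewer cells that express a gene and less of its RNA per cell cannot be told apart.

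Another 3 Cebpa probe sets fell as well. Probe set 1384126_a_at, which the platform table ties to the same expressed sequence tag as 1384127_at, read 6.59, 6.62, 6.31 and 6.49 in vehicle and 5.68, 6.15, 5.66 and 5.47 after DBP, a change of -0.76 ± 0.13 (SE; adjusted p = 0.0248). Its DBP values spread more widely than its vehicle values, with DBP replicate 2 closest to the vehicle range. Probe set 1383242_a_at read 5.99, 6.09, 5.98 and 5.84 in vehicle and 5.39, 5.51, 5.38 and 5.17 after DBP, a change of -0.61 ± 0.082 (adjusted p = 0.00859). Probe set 1383243_at, built on the same tag as 1383242_a_at, read 6.73, 6.87, 6.77 and 6.79 in vehicle and 6.41, 6.51, 6.43 and 6.37 after DBP, a change of -0.36 ± 0.058 (adjusted p = 0.0181). The 4 probe sets that fell thus go back to 2 sequence tags, and they are not 4 separate readings of the gene.

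The fifth Cebpa probe set did not follow. Probe set 1369658_at, the one that the platform table ties to the RefSeq mRNA record, read 4.96, 4.78, 4.99 and 5.07 in vehicle and 4.75, 5.01, 4.93 and 4.93 after DBP. The groups overlapped, and the change was -0.045 with a 95% interval of -0.22 to 0.13 (adjusted p = 0.785). That interval does not reach those of the 4 probe sets that fell, the nearest of which ends at -0.23. The probe sets of Cebpa therefore disagree, and the table gives no detection call that would show whether this one measured the transcript. Averaged over all 5, Cebpa changed by -0.46 ± 0.068 (SE; adjusted p = 0.00952 over 14217 genes).

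In all, 4 of the 12 C/EBP probe sets passed, all of them lower and all of Cebpa, where 1.07% of all probe sets passed in either direction, 0.648% as lower and 0.419% as higher. The groups did not overlap for 5 of the 12, all of them lower, against 10.9% of all probe sets in either direction and 5.26% lower. An unadjusted p under 0.05 in limma was seen for 8 of the 12, 7 lower and 1 higher, against 18.2% of all probe sets, 8.86% lower and 9.39% higher. The median change over the 12 was -0.28, against 0.015 over all probe sets. With the arrays shifted to 1 common median, every change of this comparison moved up by 0.02 (log2), and the 12 kept their directions.

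The Cebpa calls depended on which arrays were used. In DBP replicates 1 and 2 alone against vehicle the changes were -0.40 for 1384127_at (adjusted p = 0.0391), -0.53 for 1383242_a_at (0.0195), -0.33 for 1383243_at (0.0435) and -0.59 for 1384126_a_at (0.0703), all in limma. In DBP replicates 3 and 4 they were -0.61, -0.70, -0.39 and -0.94 in the same order. Both pairs of arrays lay below vehicle on all 4 probe sets, and replicates 3 and 4 lay further below. Leaving out 1 vehicle array raised the adjusted p of 1384127_at to 0.0638, 0.0577, 0.052 and 0.0619 without vehicle replicates 1, 2, 3 and 4, with changes between -0.54 and -0.49. Of the 4 probe sets, 1383242_a_at passed without any 1 of the 8 arrays (adjusted p up to 0.0471), 1384127_at and 1383243_at passed when any 1 DBP array was left out but not when any 1 vehicle array was, and 1384126_a_at passed only without DBP replicate 2 (0.00297) or DBP replicate 4 (0.0383). A fit with a term for DBP replicates 3 and 4 also compares replicates 1 and 2 with vehicle. It gives the same changes as those replicates alone and is not a separate check. In that fit 1384126_a_at did not pass (adjusted p = 0.0702 in limma) and the other 3 did (up to 0.0487). Unmoderated t statistics gave an adjusted p of 0.104 for 1384127_at and passed none of the 12 probe sets.

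**Figure D2:**
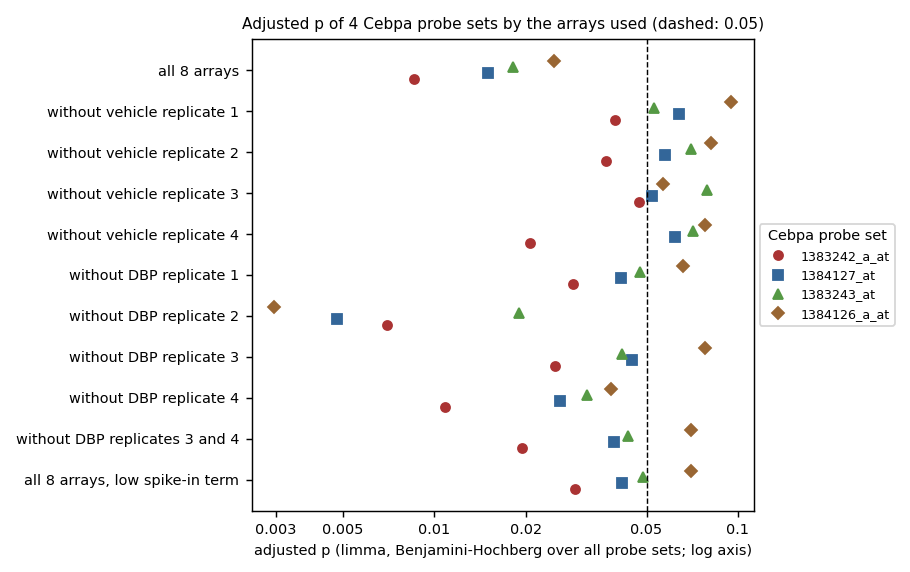
Adjusted p (x axis, log scale, dashed line at 0.05) of the 4 Cebpa probe sets that fell, with all 8 arrays, with each array left out, without DBP replicates 3 and 4, and with a term for those 2 arrays (y axis). The fit with that term and the fit without those 2 arrays estimate the same change. Without any 1 vehicle array 1383242_a_at stays under 0.05 and the other 3 probe sets lie above it.

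Cebpb, the hormone-responsive member, lay lower after DBP without passing. Its 1 probe set read 8.01, 7.84, 7.68 and 7.78 in vehicle and 7.40, 7.67, 7.68 and 7.22 after DBP. DBP replicates 1, 2 and 4 were below every vehicle array and DBP replicate 3 equalled the lowest of them, so the groups touched. The change was -0.34 ± 0.11 (SE; 95% interval -0.58 to -0.09; adjusted p = 0.169, unadjusted 0.0124 in limma), and was -0.29 over DBP replicates 1 and 2 and -0.38 over replicates 3 and 4. A fall as large as that of Cebpa lies within this interval.

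Cebpg, which neighbours Cebpa in the RefSeq gene order of GRCr8, also lay lower without passing. On its brighter probe set, 1372885_at, the values were 8.77, 8.73, 8.72 and 8.70 in vehicle and 8.56, 8.61, 8.40 and 8.42 after DBP. The groups did not overlap, and the change was -0.23 ± 0.064 (SE; 95% interval -0.37 to -0.09; adjusted p = 0.115). On the other probe set, 1371038_at, the values were 7.09, 6.83, 7.13 and 6.90 in vehicle and 6.90, 6.92, 6.44 and 6.32 after DBP, with a change of -0.34 ± 0.14 (adjusted p = 0.237). Here DBP replicates 1 and 2 lay inside the vehicle range and replicates 3 and 4, those with low spike-in signal, lay below it, so that the change was -0.08 in the first pair and -0.61 in the second. For 1372885_at the same values were -0.15 and -0.32.

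The next protein-coding genes on either side of this pair in that order, chosen after the values of Cebpa and Cebpg were seen, did not pass. Pepd, which encodes a dipeptidase and lies on the far side of Cebpg, gave -0.05 ± 0.074 (SE; adjusted p = 0.753), and Slc7a10, an amino acid transporter on the other side of Cebpa, gave 0.08 ± 0.077 (adjusted p = 0.603). Lrp3 beyond it gave 0.07 (adjusted p = 0.78). The next measured gene beyond Pepd, Chst8, a sulfotransferase, gave -0.18 ± 0.077 (SE; unadjusted p = 0.0373 in limma, adjusted 0.249).

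Cebpd, the inflammation-induced member, did not pass on any of its 3 probe sets. On the brightest, 1387343_at, the values were 7.29, 7.10, 6.91 and 7.01 in vehicle and 7.14, 7.13, 7.23 and 7.32 after DBP, a change of 0.13 with a 95% interval of -0.06 to 0.32 (adjusted p = 0.439). On 1368813_at they were 5.77, 6.01, 5.77 and 5.78 in vehicle and 5.91, 5.99, 6.18 and 6.09 after DBP, a change of 0.21 (0.03 to 0.39; adjusted p = 0.217), with 0.12 for DBP replicates 1 and 2 and 0.30 for replicates 3 and 4. The groups overlapped on both, and on 1368813_at they did so through vehicle replicate 2 alone. The dimmest, 1389828_at, ran from 3.26 to 3.72 in vehicle and from 3.51 to 3.67 after DBP, with a change of 0.03 whose sign turned after quantile normalization (-0.01); its mean lay below the lower quartile of all probe sets.

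Cebpe, the granulocyte member, read 4.10, 4.61, 4.35 and 4.32 in vehicle and 4.53, 4.50, 4.48 and 4.39 after DBP. All DBP values fell inside the vehicle range, and the change was 0.13 (95% interval -0.08 to 0.34, adjusted p = 0.48 in limma). This probe set was dim, with a mean of 4.41 near the lower quartile of all probe sets, 4.29.

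**Figure D3:**
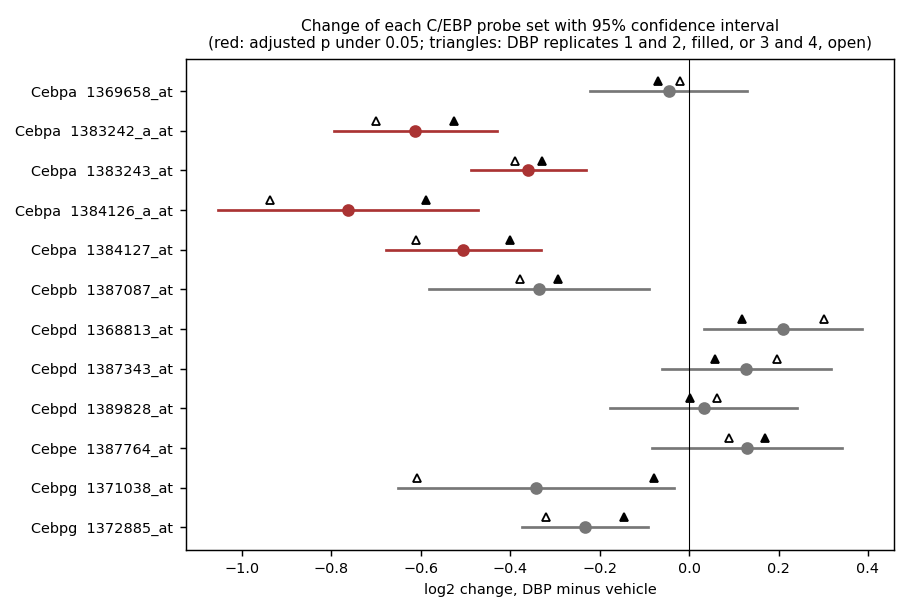
Log2 change of each C/EBP probe set (y axis), DBP minus vehicle (x axis), with its 95% confidence interval from limma; red marks an adjusted p under 0.05, and triangles give the change in DBP replicates 1 and 2 (filled) and 3 and 4 (open). The intervals of 4 Cebpa probe sets lie below -0.23, while that of 1369658_at spans 0.

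The members were compared through the within-array difference between Cebpa and each other member. An exact two-sided permutation test was run over the 70 splits of the 8 arrays, which can give no p below 0.0286. Cebpa, known from earlier results of these data to pass, was the reference, read through 1384127_at, a probe set that fell. The exact p-values do not allow for that choice, so they describe the differences. The change of Cebpa was lower than that of Cebpd by a log2 of -0.63, than that of Cebpe by -0.64 and than that of Cebpg by -0.27 (exact p = 0.0286 each, adjusted over the 4 members compared 0.0381; without vehicle replicate 2, 3 or 4 the adjusted exact p was 0.0571 or 0.0762). Against Cebpb the difference was -0.17 (exact p = 0.171), which does not settle whether the changes of these 2 genes differ. With each gene taken as the mean over its probe sets, the difference from Cebpg was -0.17 (adjusted exact p = 0.19), and those from Cebpd and Cebpe were -0.58 and -0.59 (0.0571 each). In DBP replicates 1 and 2 alone the differences from Cebpd, Cebpe and Cebpg were -0.46, -0.57 and -0.26, where so few arrays cannot reach 0.05.

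Genes around the family were read in 7 lists holding 109 measured genes, each through its brightest probe set. Of these 109, 3 passed (2.75%, against 1.22% of all 14217 genes, 0.626% lower and 0.598% higher), Egr2 and Ccnd2 lower and Nr4a1 higher, and 31 had an unadjusted p under 0.05 in limma (28.4%, against 19.1% of all genes, 7.84% lower and 11.3% higher). Unmoderated t statistics passed 0 in every list.

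The bZIP partners and relatives of the C/EBP factors, 14 genes, had 0 past the threshold and 6 with an unadjusted p under 0.05 in limma, 3 lower and 3 higher, with a median change of -0.02 (0.02 over all genes; 0.02 for DBP replicates 1 and 2, and 0.0025 with the arrays at 1 common median). Atf4, the stress-response factor with which C/EBP gamma can pair, ranged from 10.58 to 10.65 in vehicle and from 10.44 to 10.50 after DBP; the difference of -0.14 ± 0.052 (SE) did not pass (adjusted p = 0.201). Batf, a bZIP factor of lymphoid cells, gave 0.27 (adjusted p = 0.0866), Nfil3, a repressor of the same structural class, 0.26 (0.155; 0.14 for DBP replicates 1 and 2, 0.39 for replicates 3 and 4), and Tef, a clock-linked bZIP activator, -0.25 (0.111), none past the threshold. Ddit3, the dominant-negative relative also called CHOP, gave -0.02 (adjusted p = 0.89).

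Among 24 genes that set C/EBP amount or activity 1 fell and 6 had an unadjusted p under 0.05, all lower, with a median of -0.04. Egr2 (Krox20), which can induce Cebpb early in fat cell differentiation, read 6.26, 6.24, 6.28 and 6.35 in vehicle and 6.0, 5.78, 5.88 and 6.0 after DBP, a change of -0.37 ± 0.066 (SE; adjusted p = 0.0298). Its dimmer probe set gave 0.15 without passing, the mean over both -0.11 (adjusted p = 0.319), and the call ended without any 1 vehicle array or without DBP replicate 3 (adjusted p up to 0.117). Id2, a helix-loop-helix inhibitor, gave -0.51 ± 0.17 (adjusted p = 0.167), with -0.34 for DBP replicates 1 and 2 and -0.69 in replicates 3 and 4; Stat3, a cytokine-activated factor that can induce Cebpd, gave -0.45 (0.205; -0.63 and -0.26 in those pairs), and Mtor, a growth-control kinase, -0.19 (0.201). The other probe sets of Id2 and Stat3 gave 0.11 and -0.06, so the probe sets of these genes disagree in size or sign.

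The 17 liver and adipose genes known as C/EBP targets, among them lipid enzymes and fat cell hormones, had 0 past the threshold and 5 with an unadjusted p under 0.05, all higher. Their median was 0.14, with 15 of 17 higher. Scd, the stearoyl-CoA desaturase, gave 0.49 ± 0.14 (SE; adjusted p = 0.116), Fabp4, the fat cell fatty acid carrier, 0.44 (0.143), Lep, which encodes leptin, 0.33 (0.137), and Ppargc1a, the coactivator PGC-1 alpha, 0.29 (0.131; 0.16 and -0.05 on its other probe sets). For DBP replicates 1 and 2 these 4 genes gave 0.42, 0.32, 0.17 and 0.19, and for replicates 3 and 4 they gave 0.56, 0.55, 0.48 and 0.39. Of the 17, 8 had means below the lower quartile of all probe sets. Among the 3555 dimmest genes 79.9% were higher after DBP, with a median change of 0.09 (0.04 for DBP replicates 1 and 2, 0.13 for replicates 3 and 4), so most dim genes lay higher after DBP.

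Acute phase and inflammatory targets (18 genes) had 0 past the threshold and 5 with an unadjusted p under 0.05, 1 lower and 4 higher, with a median of 0.04 (0.005 for DBP replicates 1 and 2, 0.13 for replicates 3 and 4). Cp, which encodes the copper carrier ceruloplasmin, read 7.45, 7.55, 7.29 and 7.24 in vehicle and 7.86, 7.81, 7.66 and 7.65 after DBP, a difference of 0.36 ± 0.083 (SE; adjusted p = 0.0746); in DBP replicates 1 and 2 it was 0.45 and passed (0.0481). Ptgs2, the inducible prostaglandin synthase, gave -0.46 (0.253), with -0.14 for DBP replicates 1 and 2 and -0.79 in replicates 3 and 4, while Orm1 and Fgb, liver acute phase genes, gave 0.24 (0.17) and 0.18 (0.247). The other probe sets of Fgb gave 0.03 and -0.02. Of the 18, 8 had means below the lower quartile of all probe sets, Orm1 and Fgb among them. The 10 myeloid and granule targets had 0 past the threshold and 1 with an unadjusted p under 0.05, Gfi1, a transcriptional repressor of myeloid development (0.28; adjusted p = 0.247), and a median of 0.07. Gfi1 gave 0.08 for DBP replicates 1 and 2 and 0.47 for replicates 3 and 4, and 0.02 on its other probe set. Of these 10 genes 4 had means below that quartile, Gfi1 among them.

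In the list of 13 gonadal and steroidogenic genes 1 passed and 6 had an unadjusted p under 0.05, 2 lower and 4 higher, with a median of 0.10 that was -0.02 for DBP replicates 1 and 2 and 0.14 for replicates 3 and 4. Nr4a1, an orphan nuclear receptor that responds to luteinizing hormone, read 7.52, 7.30, 7.09 and 6.90 in vehicle and 8.15, 8.38, 8.08 and 8.85 after DBP, a rise of 1.16 ± 0.17 (SE; 2.24-fold; adjusted p = 0.0132, and 0.0604 without vehicle replicate 3). Star, whose promoter C/EBP beta can bind, gave 0.10 with a 95% interval of -0.10 to 0.30 (adjusted p = 0.572). Hsd3b1, a steroid dehydrogenase (0.17; adjusted p = 0.164), Shbg, a steroid carrier (0.20; 0.195), and Lhcgr, the luteinizing hormone receptor (-0.21; 0.17), did not pass. Shbg gave 0.10 for DBP replicates 1 and 2 and 0.31 for replicates 3 and 4, and Lhcgr gave -0.50 on its other probe set.

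Of 13 cell cycle genes that C/EBP alpha is known to act with or against, 1 fell and 1 other had an unadjusted p under 0.05, and the median was -0.02 (0.0025 with the arrays at 1 common median). Ccnd2, which encodes cyclin D2, read 11.58, 11.53, 11.60 and 11.44 in vehicle and 10.81, 10.03, 10.86 and 10.85 after DBP, a change of -0.90 ± 0.16 (SE; adjusted p = 0.032). The groups were far apart, with DBP replicate 2 lowest, and the call ended without any 1 vehicle array or without DBP replicates 1 or 3 (adjusted p up to 0.122). Cdkn1a, which encodes the cyclin-dependent kinase inhibitor p21 that C/EBP alpha can stabilise, gave 0.20 (adjusted p = 0.231; 0.0075 on its other probe set), while Rbl1, a pocket protein, gave -0.21 (0.276) and Ccne1, cyclin E, -0.11 (0.33). Cdkn1a gave 0.08 and Rbl1 -0.09 for DBP replicates 1 and 2, against 0.32 and -0.34 for replicates 3 and 4, while Ccnd2 gave -1.12 and -0.68.

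**Figure D4:**
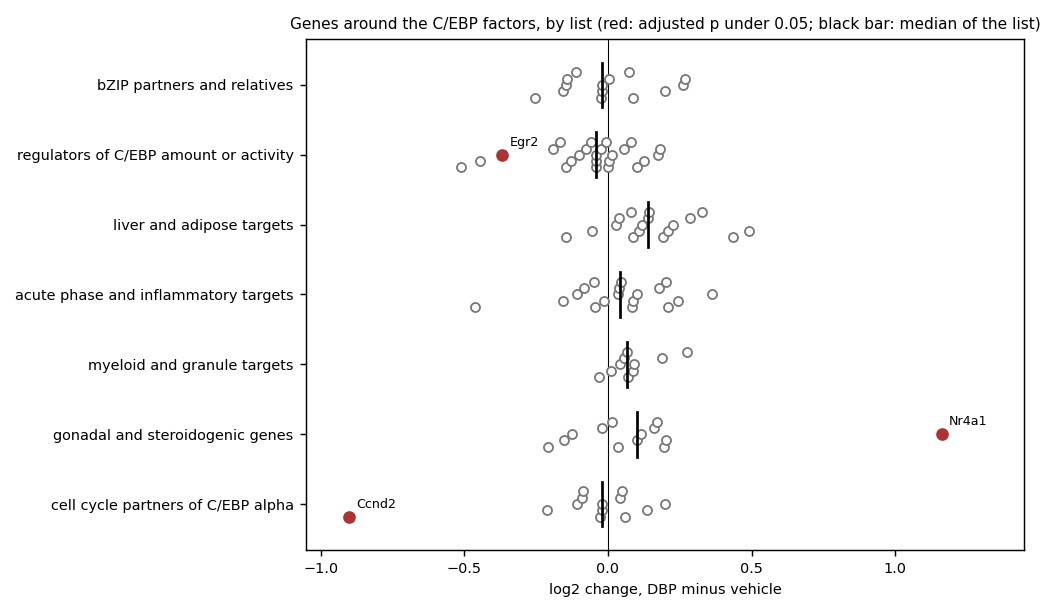
Log2 change, DBP minus vehicle (x axis), of each measured gene in the 7 lists around the C/EBP factors (y axis), through its brightest probe set; black bars are list medians and red points the genes with an adjusted p under 0.05. Only Egr2, Nr4a1 and Ccnd2 are red, and the liver and adipose list has the highest median, 0.14.

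The tissue carried the markers of fetal testis. Leydig cell markers had vehicle means between 10.29 and 12.64 (6 of 6 measured), and Sertoli cell markers between 5.10 and 12.67 (5 of 7 measured); of 6 germ cell markers 2 were measured and the others were not analysed here. Over the 10 marker lists, 1 of 46 measured genes passed in limma (2.17%, against 1.22% of all genes) and 14 had an unadjusted p under 0.05. The 1 that passed was Plvap of the endothelium (0.36, adjusted p = 0.0471 in limma), which did not pass without DBP replicates 3 and 4. Without them 3 genes of the erythroid list, 1 of the Leydig list and 1 of the Sertoli list passed. The 5 measured erythroid markers, which read blood in the tissue, were all higher, with a median of 0.28 that was 0.63 for DBP replicates 1 and 2 and -0.02 for replicates 3 and 4, and Slc4a1, the red cell anion exchanger, gave 1.26 and -0.35. The summed erythroid signal ran from 19181 to 21681 in vehicle and 19585 to 23751 after DBP. For cell types in which C/EBP alpha is abundant elsewhere, the summed linear signal of the granulocyte markers (4 of 7 measured) ran from 149 to 193 in vehicle and 137 to 199 after DBP, that of the macrophage markers (7 of 7) from 885 to 932 and 936 to 1053, and that of the adipocyte markers (5 of 5) from 75 to 85 and 80 to 103. The macrophage sums did not overlap and were higher after DBP, with 932 the highest in vehicle and 936 the lowest after DBP. The median change of the 7 macrophage markers was 0.085, with 0.15 for DBP replicates 1 and 2 and -0.02 for replicates 3 and 4. Among them the groups did not overlap for Fcer1g (0.27, adjusted p = 0.0835 in limma) and Cd74 (0.24, adjusted p = 0.115), and overlapped for the others, of which 1 was lower. Fcer1g gave 0.27 in each pair of DBP replicates, and Cd74 gave 0.15 for replicates 1 and 2 and 0.33 for replicates 3 and 4. The granulocyte and adipocyte sums overlapped. The summed Leydig cell signal ran from 22638 to 23692 in vehicle and 21625 to 24068 after DBP, and the summed Sertoli cell signal from 9848 to 10491 and 8618 to 10628, so both ranges after DBP enclosed those of vehicle. Single markers differed from these sums. Of the 6 Leydig markers 4 were lower, and of the 5 measured Sertoli markers 2. The groups did not overlap for Insl3, the Leydig cell hormone (-0.34, adjusted p = 0.0732 in limma). It passed in 1 of the 8 fits with 1 array left out. Nor did they overlap for Inhbb, an inhibin subunit of the Sertoli list (-0.35, adjusted p = 0.0614, and 0.0422 in the fit over gene means). Groups were also separate for Lhcgr (-0.21) and, higher after DBP, for Hsd3b1 (0.17), Clu (0.25) and Gata1 (0.36). Over all probe sets, 10.9% had groups that did not overlap. Gata1, the dimmest measured gene of the Sertoli list (vehicle mean 5.10), gave 0.59 for DBP replicates 1 and 2 and 0.13 for replicates 3 and 4. The erythroid median was also higher in the first pair. Whether Gata1 read Sertoli cells or blood here was not tested. The part of cell makeup in the fall of Cebpa was not tested.

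The 5 genes whose pattern over the 8 arrays lay closest to that of Cebpa, by the root-mean-square difference of mean-centred log2 values among 14212 genes, were Aldh1b1 (0.0608), Spsb1 (0.0703), Emilin3 (0.075), Nav1 (0.0775) and Bcar3 (0.081), where the median gene stood at 0.296. Aldh1b1, a mitochondrial aldehyde dehydrogenase, read 7.61, 7.63, 7.46 and 7.56 in vehicle and 6.99, 7.22, 7.10 and 6.95 after DBP. In all 5 genes, as in Cebpa, DBP replicate 2 was the highest DBP array, a feature of the pattern they were chosen to match. The changes of the 5 genes ran from -0.50 for Aldh1b1 to -0.41 for Bcar3. Since they were chosen for matching a gene that fell, these changes are a description and carry no test.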

How the data were processed

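The deposited table holds log2 RMA signals, per the submitters' processing notes; which RMA version the authors ran is not given in the sources. Of 31099 probe sets 57 controls were set aside. Symbols came from the platform annotation (20826 probe sets with 1 symbol, 436 with several, 9780 with none), and a gene is represented by its probe set with the highest mean. Groups were compared with limma 3.58.1 (R 4.3.3), 2-sided, adjusted over 31042 probe sets, threshold 0.05. Probe sets were ranked by mean signal only to choose and describe them, and signals were added over probe sets only for marker lists. On simulated data of 31042 probe sets for DBP against vehicle it recovered 96 of 100 shifts of 1 (log2) and 64 of 100 shifts of 0.5, and made 6 false calls. The simulated noise was independent between probe sets, with the same spread in both groups. The real DBP arrays differed more among themselves than the vehicle arrays, so these counts do not give the error rate here. The number of arrays limits the precision. The members and gene lists were chosen with earlier results of these data known. Named were all members, up to 4 genes per list with the smallest p, and the 5 patterns nearest to Cebpa. Ddit3, Star, Plvap, Tef and Cp probe sets, Cebpz, Insl3, Inhbb, Clu, Gata1, Slc4a1, Cd74, Fcer1g and the neighbours of Cebpa were added after their values were seen. Filters, normalizations, moderation, covariates and left-out arrays were varied.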

Additional observations from a re-analysis of the deposited data

Results flagged for a closer look

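Among 80 groups of 4 arrays, those of the 12 C/EBP probe sets and of the genes named from the lists, 4 held an array far from the other 3, where chance gives about 1 in 20. On Cebpd probe set 1368813_at vehicle replicate 2 read 6.01 and the others 5.77 to 5.78. Orm1 read 3.80 in DBP replicate 4 and 3.52 to 3.54 in the other DBP arrays. Mmp9, a matrix protease of the myeloid list, read 3.66 in vehicle replicate 3 and 3.91 to 3.96 in the other vehicle arrays. Ccnd2 read 10.03 in DBP replicate 2 and 10.81 to 10.86 in the other DBP arrays.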

How the results depend on the processing

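The count of C/EBP probe sets past the threshold, 4 with all arrays, was 2 without the _x_at, _s_at and _a_at probe sets. With unmoderated t statistics it was 0. There 7 of the 12 had an unadjusted p under 0.05, against 4930 of all 31042 probe sets. With 1 array left out the count past the threshold was 1 to 4. The count over all probe sets, 331, was 175 with the replicate number as a block, 74 with unmoderated t statistics, 577 without DBP replicates 3 and 4, 4129 with those 2 alone (an alternative chosen after seeing the data) and 82 to 606 with 1 array left out. For Cebpa (1384127_at) the change ran from -0.57 to -0.46 with 1 array left out, and with unmoderated t statistics the same -0.51 missed the threshold (adjusted p = 0.104). Adjusted p-values of 1384127_at under the block were under 0.05; that of 1383243_at was 0.0548. Same-numbered arrays correlated between -0.08 and 0.11 in their deviations from the group means, and 4 of 8 arrays correlated best with their own number. The largest correlation, 0.17, was between vehicle replicate 4 and DBP replicate 2. These values do not settle whether the numbers mark pairs, and the main fit did not take them as pairs. The differences of Cebpa from Cebpb, Cebpd, Cebpe and Cebpg ran from -0.22 to -0.08, -0.73 to -0.55, -0.72 to -0.55 and -0.30 to -0.24 with 1 array left out. From the last 3 the differences without DBP replicates 3 and 4 were -0.46, -0.57 and -0.26, and over gene means -0.58, -0.59 and -0.17 for Cebpd, Cebpe and Cebpg, none past the threshold. Directions turned for 2 probe sets near 0: Cebpa 1369658_at without DBP replicate 1 (0.0067; with 1 array left out -0.10 to 0.0067), and Cebpd 1389828_at (-0.057 to 0.097 with 1 array left out) after quantile normalization (-0.015), without DBP replicate 4 (-0.0042) and without vehicle replicate 1 (-0.057). The cause was not tested.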

Other observations

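Tef, the clock-linked bZIP activator, lay lower on all 3 of its probe sets, by -0.25, -0.36 and -0.43 on the log2 scale, and 0 of them passed in limma (adjusted p = 0.111, 0.183 and 0.0907). Averaged over the 3 it changed by -0.35 (adjusted p = 0.0425 over 14217 genes). Cp, read by 3 probe sets, gave 0.36, 0.37 and 0.08, with a mean of 0.27 (adjusted p = 0.158). Cebpz, which shares the family's naming but belongs to a different protein class, gave -0.06 ± 0.074 (SE; adjusted p = 0.683).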
